A study of Arabidopsis thaliana with 625 samples.

Results

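The cells described here carry a transcript of SPEECHLESS (SPCH), the gene that starts the stomatal lineage, and none of the later regulators MUTE and FAMA. They were chosen on 3 measured values, SPCH at 1 TPM or more and MUTE and FAMA under 1 TPM, where TPM, an estimate of transcript abundance corrected for transcript length, scales each cell to the same total. All were cells of the TMMp line, from Arabidopsis thaliana seedlings carrying TMMp::TMM-YFP, a YFP fusion of TMM under its own promoter. They are called SPCH cells here. The rule found 55 SPCH cells among 478 TMMp cells, which were part of 621 cells sequenced 1 by 1 with Smart-seq2. They were set against 334 TMMp cells in which all 3 regulators were under 1 TPM, called cells without the 3 regulators, and also against 34 MUTE cells (MUTE at 1 TPM or more, FAMA under it) and 55 FAMA cells (FAMA at 1 TPM or more). All 4 groups carried the same transgene and came from aerial tissue sampled at 10 days post germination, and each was a sorted single cell on 1 of 7 plates, named TMM1 to TMM7. TMM1 and TMM2 belonged to pool 1 and the other 5 plates to pool 2. The second line, ATML1p::YFP-RCI2A, a membrane marker under an epidermal promoter, gave 143 cells, of which 2 met the same rule. The reporter is itself a TMM fusion, the labels do not give the sorting gate, and all TMMp cells are from 1 transgenic line, so these cells need not represent the whole lineage.

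SPCH is a basic helix-loop-helix transcription factor of the leaf epidermis. It acts in cells that divide asymmetrically, before MUTE takes over commitment to a guard mother cell and before FAMA acts at the last, symmetric division that gives the guard cell pair. SPCH works as a dimer with SCRM or SCRM2, and the lineage it starts is held in check by secreted EPF peptides, their ERECTA-family receptors and the receptor-like protein TMM, and oriented by polarity proteins such as BASL.

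SPCH itself, which chose the cells, was detected in 77 TMMp cells, of which 14 also had MUTE and 8 had FAMA. Its level in the 55 SPCH cells had a lowest value of 3.14 TPM, a median of 170.0 TPM and a highest value of 832 TPM. The SPCH cells nearest the threshold had 3.14, 4.82 and 10.3 TPM, and no TMMp cell lay above 0 and below 1 TPM, so every cell just outside had SPCH listed at 0. MUTE and FAMA were also listed at 0 in all 55. An exact 0 in these values can be a failed capture, so a cell without the 3 regulators may have carried an unread SPCH transcript. In MUTE cells SPCH was found in 41.2% of cells, and in FAMA cells in 14.5%.

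SPCH cells made up 11.5% of TMMp cells (exact 95% binomial interval 8.79 to 14.7, counting cells only), and their share per plate averaged 11.3% ± 4.45 (SD, n = 7 plates). Plate TMM2 gave 15 of its 73 cells, and the other plates gave from 5 to 10 SPCH cells each.

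SPCH cells yielded more genes than the cells without the 3 regulators on all 7 plates, and this difference touches every level compared here. A gene counted as detected at 1 TPM. The median SPCH cell had 3814 genes and the median cell without the 3 regulators 2453. Over plates, the median number of genes in SPCH cells was 2924 at its lowest, 3994 in the middle and 5085 at its highest, against 2261, 2412 and 2761 in cells without the 3 regulators. The lowest plate of SPCH cells lay above the highest plate of the others. The plate medians differed by 1589 ± 904 genes (SD, n = 7; exact two-sided sign-flip test, p = 0.0156, the smallest 7 plates can give). MUTE cells, with a median of 4277.5 genes, and FAMA cells, with 4309, had higher medians than SPCH cells. The rule asks that SPCH be detected, which can itself favour cells with more genes detected. The direction of the sign-flip test was thus not independent of the rule, and its p-value is description only. Read depth is unknown from TPM, and whether the number of genes followed cell size, RNA content or capture was not tested. Each difference from the cells without the 3 regulators is given as measured, then with the log2 number of genes detected as a term within each plate, and for named genes also against 55 cells without the 3 regulators matched to the SPCH cells for number of genes (median 3799 genes). The matching was not complete, since the plate medians of SPCH cells were still higher than those of the matched cells on all 7 plates, by 323 ± 348 genes (SD, n = 7; exact two-sided sign-flip test, p = 0.0156).

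**Figure D1:**
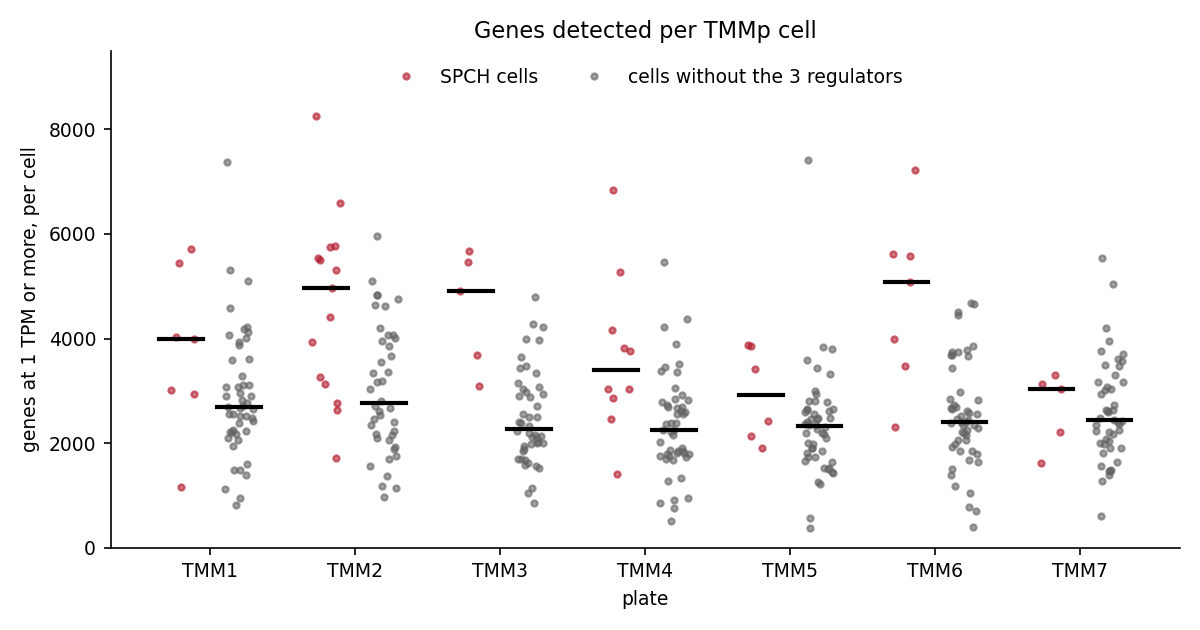
Number of genes at 1 TPM or more in each cell, by plate, for the 55 SPCH cells (red, left of each pair) and the 334 cells without the 3 regulators (grey, right). Each point is a cell and each bar the plate median, which was higher in SPCH cells on all 7 plates.

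No sorter signal passed a test after adjustment. The FITC area, the channel of the YFP reporter, averaged 11.46 ± 0.38 on the sorter's log2 scale in SPCH cells and 10.92 ± 0.11 in cells without the 3 regulators (SD over 7 plates), and was higher in SPCH cells on 6 of 7 plates. The exact sign-flip test gave p = 0.0312, and 0.146 after Benjamini-Hochberg adjustment over 7 channels. The smallest p this exact test can give with 7 plates is 0.0156, so no single channel could pass adjustment alone. A channel that did not pass is thus not shown to be alike in both groups. Side scatter area averaged 10.86 ± 0.40 in SPCH cells and 10.43 ± 0.16 in the others, with p = 0.0625 in the same exact test and 0.146 adjusted. YFP RNA was found in 96.4% of SPCH cells and 81.4% of cells without the 3 regulators. Its log2 difference was 2.40 ± 0.51 (SE) as measured and 0.72 ± 0.55 with genes detected as a term, where it did not pass (limma adjusted p = 0.435).

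Over 12131 features detected in at least 5% of the cells compared (genes and the YFP reporter), 2666 were higher in SPCH cells, 22.0% of those tested, and 555 were lower, 4.58%. Differences are of mean log2(TPM + 1) over cells, taken within each plate and tested with limma over 7 plates, with a Benjamini-Hochberg adjusted p under 0.05 as the threshold. They understate the change of low genes. In simulated data the fit recovered part of the large changes and none of the small ones, so a difference that did not pass is not shown to be absent. The median feature was itself 0.44 higher in SPCH cells. Centring each plate on its median feature changed the split to 1440 higher and 1116 lower, and taking the log of mean TPM in place of the mean log gave 473 higher and 795 lower, with a median feature at -0.32. With genes detected as a term the median feature differed by 0.11, and 765 features (6.31%) were higher and 481 (3.97%) lower. All 765 were among the 2666, and 373 of the 481 were among the 555. TMM2 holds the most SPCH cells, and without it the counts were 1604 higher and 318 lower as measured, and 358 higher and 196 lower with the term. The last pair was an alternative added after the data were seen. The fit has 6 residual degrees of freedom, and nothing in the labels says that plates are separate sets of plants, so these p-values measure the spread between plates, which may be technical.

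**Figure D2:**
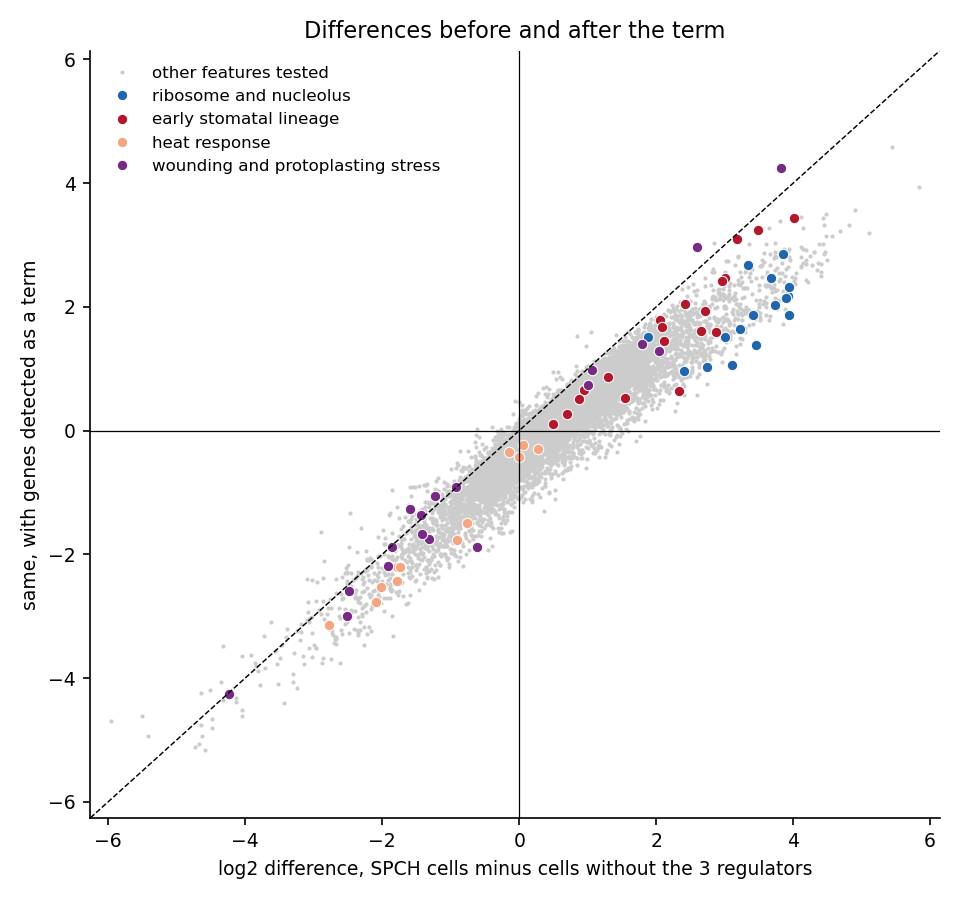
Log2 difference of each tested feature, SPCH cells minus cells without the 3 regulators, as measured (x axis) and with genes detected as a term (y axis), with the line of equal values dashed. The ribosome and nucleolus genes all lie below the line, from 1.88 to 3.94 on the x axis, while TCH4 and DDF1 lie above it.

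Early stomatal lineage genes are those known to act with or around SPCH. Their list was chosen with earlier results of these data known, so its counts are description only. Of the 19 tested, 16 were higher in SPCH cells and none was lower, with a median difference of 2.33 against 0.44 over all features. With genes detected as a term, 10 of 19 were higher, with a median of 1.61 against 0.11. The shares higher over all features were 22.0% as measured and 6.31% with the term. Against the matched cells 6 passed (BASL, CYCD3;1, CYCD3;2, SCRM2, SOL1 and TCX2), and EPF2, ERL1, ERL2 and ARK3, which passed with the term, did not (limma adjusted p = 0.0854, 0.0512, 0.121 and 0.0611 in that order). In that comparison 399 of all 12131 features were higher. Another 3 of the list's 22 genes (SDD1, CYCD7;1 and SCL28) were in too few cells to test. SPCH cells had a median of 10 of the 22 genes, against 3 in cells without the 3 regulators and 5 in the matched cells, and MUTE cells also had a median of 10 and FAMA cells 7. Against MUTE cells 2 of 22 tested genes of this list were higher in SPCH cells and none with the term, with a median of -0.13 against -0.10 over all features. The shares higher over all features there were 0.0705% as measured and 0% with the term.

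BASL, a protein polarised to 1 side of the asymmetrically dividing cell, was found in 24 of 55 SPCH cells, 43.6%, and in 6 of 334 cells without the 3 regulators. It could thus pass the filter on detection through the SPCH cells alone. Its mean level per plate was 10.9, 110.1 and 339 TPM at the lowest, middle and highest plate of SPCH cells, against 0, 0 and 15.3 TPM in cells without the 3 regulators. The plates overlapped only where SPCH cells were lowest, and the log2 difference on single plates was above 0 on all 7. The mean difference was 3.18 ± 0.51 (SE; limma adjusted p = 1.71e-07), and the term hardly moved it (3.10 ± 0.50, adjusted p = 0.000468). EPF2, the secreted peptide that limits entry into the lineage, was found in 34.5% of SPCH cells and 8.68% of the others. EPF2 had plate means of 22.0, 127 and 339 TPM in SPCH cells, against 6.11, 19.9 and 51.6 TPM in cells without the 3 regulators, and the groups overlapped. Plate TMM3, with a difference of 5.28, stood apart from the other plates. The difference was 2.06 ± 0.51 (adjusted p = 0.000889), or 1.78 ± 0.48 with the term (adjusted p = 0.0193). POLAR, another polarity protein, was found in 52.7% of SPCH cells and 21.3% of the others. Its difference of 2.65 ± 0.57 passed as measured and was 1.61 ± 0.56 with the term, which did not (limma adjusted p = 0.0676).

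These markers did not mark every SPCH cell. Of the 55 SPCH cells, 13 had BASL, EPF2 and POLAR together, 7 had 2 of them, 19 had 1 and 16 had none. Of the 334 cells without the 3 regulators, 1 had all 3 and 241 had none, and of the 55 matched cells none had all 3 and 32 had none. At least 1 of the 3 was found in 70.9% of SPCH cells and 76.5% of MUTE cells, of which none had all 3 and 8 of 34 had none. POLAR was in 67.6% of MUTE cells. BASL or EPF2 was found in 50.9% of SPCH cells, against 9.58% of cells without the 3 regulators and 12.7% of matched cells. BASL and EPF2, the markers fixed for these cells beside SPCH itself, were together in 15 SPCH cells and 3 cells without the 3 regulators. In the SPCH cells outside the 28 with BASL or EPF2, the label rests on SPCH alone.

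Of the partners of SPCH, SCRM2 was higher by 3.00 ± 0.53 and stayed higher with the term (2.47 ± 0.51, limma adjusted p = 0.00358), whereas SCRM, higher by 2.87 ± 0.61, was at 1.59 ± 0.69 with it (adjusted p = 0.145). SCRM2 was found in 47.3% of SPCH cells and 8.68% of the others, and SCRM in 72.7% and 40.1%. Of the receptors, ERL1 (2.08 ± 0.51, and 1.68 ± 0.46 with the term) and ERL2 (2.12 ± 0.52, and 1.45 ± 0.43) passed in both fits, and ER, at 0.95 ± 0.48, passed in neither. TMM, the gene whose promoter drives the reporter, was in 98.2% of SPCH cells and 86.5% of the others. Its difference of 2.33 ± 0.48 was 0.64 ± 0.54 with the term (adjusted p = 0.483). Reads of TMM can come from the gene or from the TMM-YFP transgene, which were not separated.

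Of the related CXC-domain proteins, SOL1 was higher by 2.71 ± 0.56 and TCX2 by 2.96 ± 0.54, and both passed with the term at 1.94 ± 0.51 and 2.41 ± 0.55. Both are DNA-binding proteins. Their homologue TSO1 was at 0.88 ± 0.35, just past the threshold as measured (adjusted p = 0.0499), and 0.51 ± 0.29 with the term. ARK3, an armadillo-repeat kinesin, was higher by 2.42 ± 0.54 and by 2.04 ± 0.44 with the term. BRXL2, a polarity protein of the BREVIS RADIX family, and HDG2, a homeodomain factor of the epidermis, passed as measured, HDG2 at 1.55 ± 0.59. With the term, at 0.87 ± 0.40 for BRXL2 and 0.52 ± 0.57 for HDG2, neither did. BRXL2 also missed the threshold without plate TMM1 (1.03, adjusted p = 0.0662 in limma) and without TMM2 (0.93, adjusted p = 0.116). HDG2 missed it without any 1 of 5 plates, down to 1.24 without TMM2 (adjusted p = 0.175). TSO1 missed it without any 1 of 6, down to 0.69 without TMM2 (adjusted p = 0.160). YDA, the kinase at the head of the lineage's MAP kinase cascade, and BSL1, a phosphatase of the BSU1 family, passed in neither fit (0.70 ± 0.41 and 0.49 ± 0.45).

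**Figure D3:**
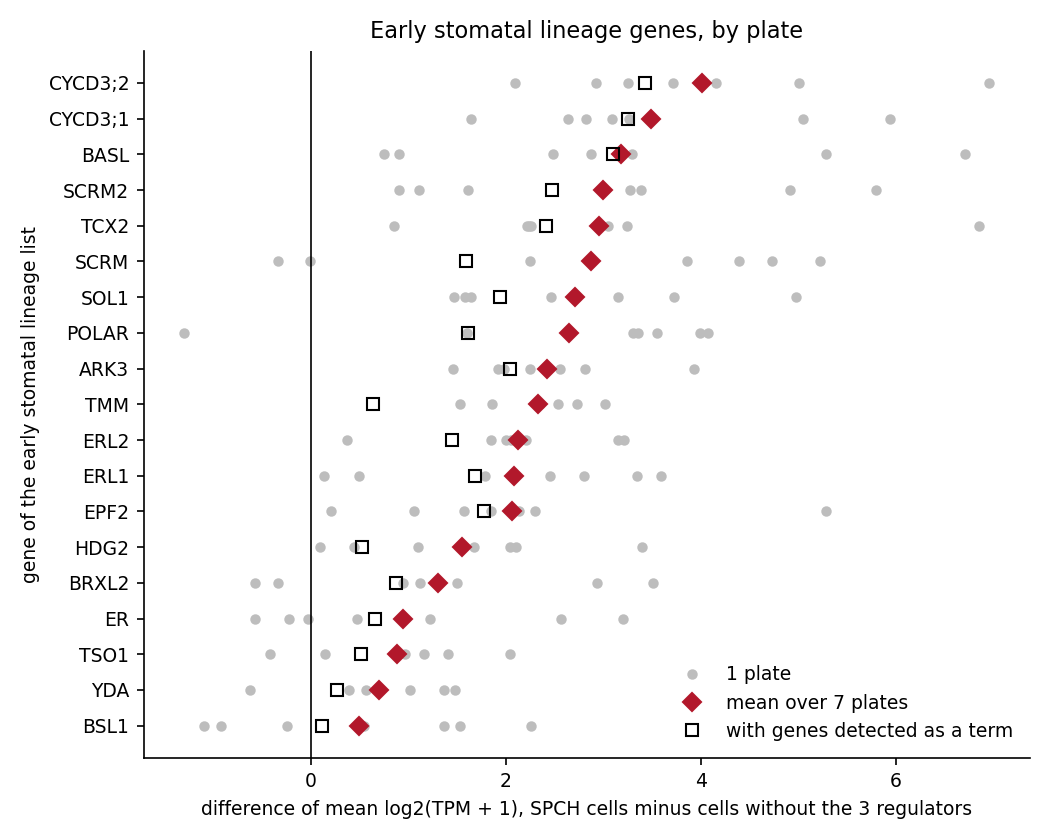
Differences of mean log2(TPM + 1), SPCH cells minus cells without the 3 regulators, for the 19 tested early stomatal lineage genes. Grey points are the 7 plates, red diamonds their mean and open squares the difference with genes detected as a term; CYCD3;2, CYCD3;1 and BASL have the largest means, and TMM and HDG2 move far to the left with the term.

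The largest differences in the early lineage list were those of CYCD3;2 and CYCD3;1, D-type cyclins that drive entry into the cell cycle. CYCD3;2 was found in 67.3% of SPCH cells and 22.5% of cells without the 3 regulators. Its plate means were 116, 371 and 399 TPM at the lowest, middle and highest plate of SPCH cells, against 35.9, 43.0 and 63.8 TPM in the others, with no overlap between the groups. The difference was 4.01 ± 0.59 (limma adjusted p = 9.56e-09), and 3.43 ± 0.55 with the term (adjusted p = 0.000468). CYCD3;1 was found in 54.5% of SPCH cells and 8.08% of the others. The plate means of CYCD3;1, at 74.5, 124 and 333 TPM in SPCH cells against 0, 12.6 and 42.3 TPM, did not overlap either. It differed by 3.49 ± 0.54, and by 3.25 ± 0.49 with the term. CYCD6;1, a D-type cyclin known from formative divisions in the root, was the remaining tested member of the 10 D-type cyclins, and was higher by 1.40 ± 0.41 (1.19 ± 0.36 with the term). CYCD3;1 or CYCD3;2 was found in 41 of 55 SPCH cells and both in 26.

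Mitotic genes were found together in a few cells: 9 of 55 SPCH cells had 5 or more of the 22 G2 and M phase genes, against 1 of 334 cells without the 3 regulators and 0 of 55 matched cells, which allows a share of up to 5.45% there by counting alone. In 7 of the 9, spread over 5 plates, from 7 to 20 mitotic genes were found with at most 2 of the 21 S phase genes, and 5 of these 7 had CYCB1;1, the cyclin used to mark cells about to divide. Of the 21 S phase genes, 5 or more were found in 36.4% of SPCH cells, 14.4% of cells without the 3 regulators and 27.3% of matched cells. In MUTE cells the share was 61.8%. Only 2 SPCH cells had 5 or more of both kinds. BASL was found in 5 of the 7 cells rich in mitotic genes and in 11 of the 20 cells with 5 or more S phase genes.

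**Figure D4:**
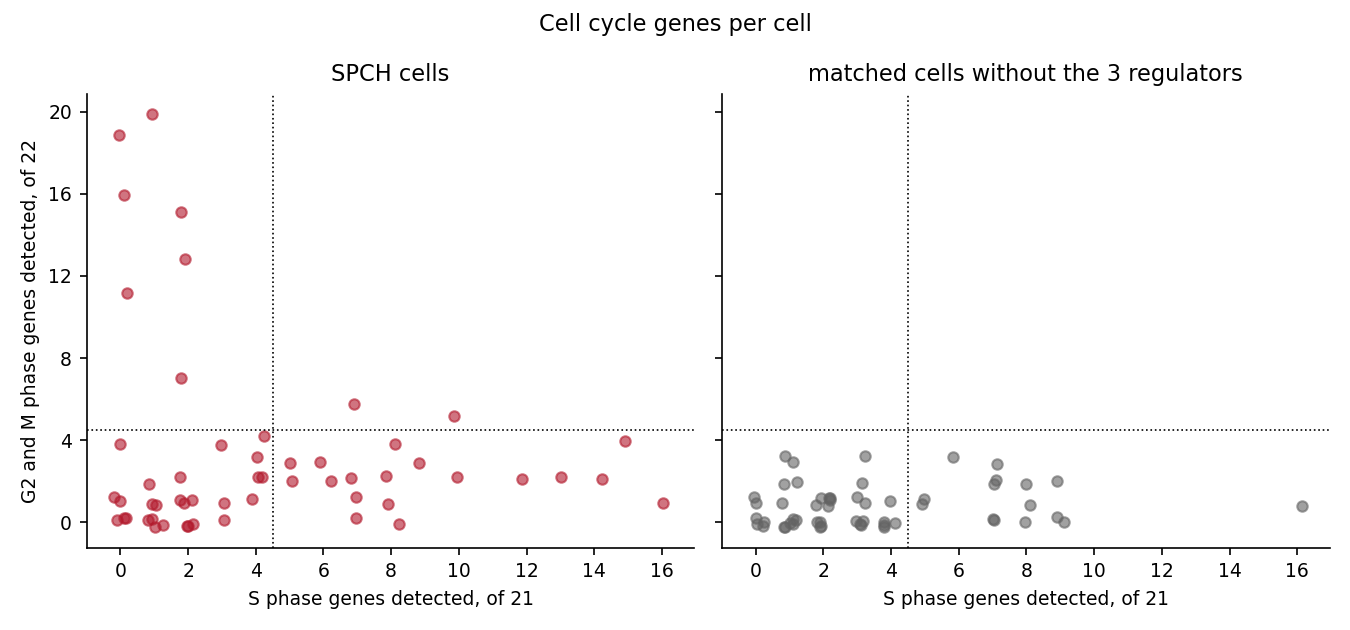
Number of S phase genes (of 21, x axis) and G2 and M phase genes (of 22, y axis) at 1 TPM or more in each of the 55 SPCH cells (left) and in 55 matched cells without the 3 regulators (right), with points spread slightly to separate them and dotted lines below 5 genes. A column of 7 SPCH cells with at most 2 S phase genes reaches 7 to 20 mitotic genes, and no matched cell passes the line on the y axis.

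Because mitotic genes were in so few cells, 6 of the 22 could be tested, and all 6 were higher in SPCH cells, with a median of 1.01. A gene of this kind could pass the filter on detection through the SPCH cells alone, so the count supports nothing. CYCA2;3, an A-type cyclin, was found in 52.7% of SPCH cells and 16.5% of the others (2.98 ± 0.56, and 2.48 ± 0.56 with the term). CENH3, the centromeric histone, was higher by 1.41 ± 0.40, and by 1.17 ± 0.29 with the term. Of the 15 tested S phase genes, 3 were higher (PCNA1, RNR1 and the histone H3 gene AT5G65360), with a median of 0.73 against 0.44 over all features. That is near the 22.0% of all features that were higher, and 1 of 15 with the term is near 6.31%, so the counts are no result about S phase genes. AT5G65360 alone remained with the term (2.41 ± 0.49 as measured, 2.06 ± 0.36 with it), and its reads could be shared with other H3 genes of near-identical sequence. The replication helicase genes MCM2 to MCM7 ranged from 0.38 to 0.99 and none passed. Of the 10 tested CDK inhibitor and endocycle genes, 6 were higher, and KRP1, DEL1 and WEE1 were still higher with the term (0.88 ± 0.28, 0.70 ± 0.23 and 0.99 ± 0.24). Over all features 22.0% were higher as measured and 6.31% with the term, and the list's median was 0.88 as measured against 0.44.

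Of the genes of the ribosome and nucleolus, 16 of 16 were higher in SPCH cells with a median of 3.43 against 0.44 over all features. With the term 8 of 16 passed, and the median was 1.87 against 0.11. The shares higher over all features were 22.0% as measured and 6.31% with the term. Their summed level was 7672, 10586 and 12123 TPM at the lowest, middle and highest plate of SPCH cells, against 3247, 3716 and 4891 TPM in cells without the 3 regulators and 2671, 4204 and 7529 TPM in the matched cells. The SPCH cells lay above all plates of both these groups, and every gene of the list that was tested had a difference above 0 in each alternative tried. This level was not particular to SPCH cells, as MUTE cells had sums of 7129, 11762 and 19401 TPM. NUC1, the nucleolin of ribosomal RNA processing, was found in 85.5% of SPCH cells and 44.0% of the others (3.85 ± 0.61, and 2.85 ± 0.59 with the term), and RPS6A, the ribosomal protein phosphorylated downstream of TOR, in 92.7% and 57.8% (3.94 ± 0.57, and 2.32 ± 0.57). Ribosomal proteins come in families of close copies, so the values of single members are uncertain where reads were split.

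PDF1 had the largest positive difference of all features. It encodes a proline-rich extracellular protein of the protoderm, the young epidermis. PDF1 was found in 98.2% of SPCH cells and 50.0% of the others. Its plate means were 1797, 2345 and 3015 TPM in SPCH cells, against 344, 449 and 848 TPM in cells without the 3 regulators, with no overlap. The difference was 5.84 ± 0.55 (limma adjusted p = 1.71e-18), 3.94 ± 0.67 with the term (adjusted p = 0.000754) and 4.42 against the matched cells (adjusted p = 2.08e-05). Next came AT4G29020, annotated as a glycine-rich protein, in 81.8% of SPCH cells and 23.1% of the others (5.45 ± 0.61, and 4.58 with the term).

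Of the other 13 genes with the largest positive differences, 11 were annotated as ribosomal proteins, among them AT5G02960 (5.11 ± 0.56), AT3G60770 (4.82 ± 0.60), PGY1 (4.56 ± 0.59) and AT3G53870 (4.49 ± 0.58). These 4 genes were higher on all 7 plates, and their differences with the term were between 2.75 and 3.33. The other ribosomal protein genes were AT3G18740, AT3G28900, AT3G06700, RPL23AA, AT2G27710, AT5G58420 and AT4G29390, from 4.43 to 4.48, of which AT5G58420 was at 0.83 on plate TMM5 and 3.99 or more elsewhere. PIP3, a plasma membrane aquaporin, was higher by 4.69 ± 0.60 (3.22 with the term), and AT1G17200, of a membrane protein family of unknown role, by 4.90 ± 0.60 (3.56 with the term). All 15 passed with the term and against matched cells.

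Among the genes most clearly lower in SPCH cells were some known from jasmonate, a hormone of wounding and defence. AOC1, an allene oxide cyclase of jasmonate synthesis, was found in 40.0% of SPCH cells and 81.1% of the others. Its plate means ran from 0 through 1063 to 3144 TPM in SPCH cells, against 2092, 3189.5 and 3619.7 TPM, and the groups overlapped on single plates. The difference was -4.58 ± 0.60 (limma adjusted p = 1.54e-10), and -5.16 with the term. With the log of mean TPM in place of the mean log it did not pass (-2.93, adjusted p = 0.0760 in limma). JAZ1, a repressor of jasmonate signalling that is itself induced by the hormone, was found in 21.8% of SPCH cells and 61.4% of the others. The plate means of JAZ1 were 0, 21.2 and 92.3 TPM in SPCH cells, against 411, 487 and 835 TPM, with no overlap. It differed by -4.23 ± 0.58 (adjusted p = 1.02e-09), and by -4.26 ± 0.59 with the term.

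The most negative difference was that of AT4G39670, annotated as a glycolipid transfer protein, at -5.96 ± 0.61, or -4.69 with the term. It was found in 27.3% of SPCH cells and 75.4% of the others, with plate means of 0, 301 and 1467 TPM against 2473, 3158 and 3957 TPM. GSTF6, a glutathione transferase of stress responses, was at -4.35 ± 0.57 and found in 10.9% of SPCH cells and 50.9% of the others. UGT73B5, a glucosyltransferase known from redox and defence responses, was at -4.65 ± 0.61. AT4G20830, a berberine-bridge type oxidase, was at -4.63 ± 0.56, and AT4G20835, annotated on the opposite strand of the same place, at -4.74 ± 0.55. Smart-seq2 does not mark strand, so the reads of that pair cannot be told apart. CK1, a choline kinase, was at -4.49 ± 0.61 and AT1G07160, a protein phosphatase 2C, at -4.32 ± 0.61. The other 6 of the 15 most negative genes were AT5G35735, AT1G19020, AT2G16900, AT2G22880, AT2G39400 and AT5G16010, from -5.51 to -4.48. All 15 were lower on every plate and passed with the term and against matched cells.

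The wounding and protoplasting list moved in both directions. Of 18 tested genes, 7 were lower in SPCH cells and 5 higher, with a median of -1.27 against 0.44 over all features. With the term 5 were lower and 2 higher. Over all features 4.58% were lower and 22.0% higher as measured, and 3.97% and 6.31% with the term. LOX3, a lipoxygenase of jasmonate synthesis, was lower by 2.52 ± 0.56 on the log2 scale, found in 72.7% of SPCH cells and 88.6% of the others, and WRKY18 (-1.85 ± 0.60) and TCH3 (-2.49 ± 0.59) were also lower, each also with the term. On the other side stood TCH4, a touch-induced enzyme that remodels cell wall xyloglucan. TCH4 was found in 87.3% of SPCH cells and 48.2% of the others, and was higher by 3.82 ± 0.59 as measured and 4.24 ± 0.57 with the term. DDF1, a relative of the cold-induced CBF factors, was higher by 2.59 ± 0.56 and by 2.97 ± 0.48 with the term. CBF1 (1.06), CBF2 and TCH2 (2.04 ± 0.61) passed as measured only.

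Heat response genes were lower in SPCH cells or did not pass. Of 12 tested, 6 were lower in both fits and none was higher, with a median of -1.32 as measured and -1.99 with the term, against 0.44 and 0.11 over all features. Over all features 4.58% were lower as measured and 3.97% with the term. HSP90.1, an inducible chaperone, was found in 32.7% of SPCH cells and 62.9% of the others (-2.78 ± 0.60, and -3.15 ± 0.58 with the term). HSP70 (-2.02 ± 0.52), HSP17.6II (-2.09 ± 0.60), HSP101 (-1.79 ± 0.58), MBF1C (-1.74 ± 0.56) and BAG6 (-1.79 ± 0.61) were the others. Their summed level with the rest of the list was 1887, 13712 and 29309.8 TPM at the lowest, middle and highest plate of SPCH cells, against 11984, 26471 and 40463 TPM in cells without the 3 regulators, and the groups overlapped. MUTE cells had 922, 6269 and 23089.7 TPM. None of the 10 genes of the list tested against MUTE cells passed, with a median of 0.78, so the low level was not particular to SPCH cells.

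Over all features 22.0% were higher and 4.58% lower as measured, and 6.31% and 3.97% with the term, and the epidermal and photosynthesis lists are read against these. Of 19 tested genes of the epidermis and cuticle, 10 were higher and KCS1, a fatty acid elongase of wax synthesis, was lower (-2.01 ± 0.59). PDF1 and PDF2, a homeodomain factor of epidermal identity (2.34 ± 0.54, and 1.66 ± 0.53), were the 2 still higher with the term, and KCS1 stayed lower (-2.22 ± 0.67). Of 23 tested mesophyll and photosynthesis genes, 11 were higher and 2 lower. With the term 3 were higher, LHCA3 (2.41 ± 0.58), RBCS1A (2.35 ± 0.57) and PSBO1 (2.54 ± 0.56), and 2 lower, RBCS2B (-2.01 ± 0.60) and CA1, a carbonic anhydrase of leaf mesophyll (-1.43 ± 0.45). The summed level of the 25 photosynthesis genes was 3599.8, 5393 and 7939 TPM on plates of SPCH cells, against 2385, 3184 and 7227 TPM in cells without the 3 regulators, and their part in the results above was not tested. With the log of mean TPM the photosynthesis median turned negative (-0.05), while that of all features was -0.32.

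Of the 15 guard cell genes, 6 could be tested and none passed as measured; CYP86A2, a cutin-forming cytochrome P450, was lower with the term (-2.40 ± 0.66, limma adjusted p = 0.0196), and 7 of the 15 were found in at least 1 SPCH cell. The trichome genes GL2, TRY, ETC1 and MYB23 were listed at 0 in all SPCH cells, and GL1 was in 1 cell and GL3 in 3. ATMYC1, a bHLH factor counted with them, was found in 40.0% of SPCH cells and 8.68% of the others (2.45 ± 0.52, and 2.17 ± 0.51 with the term). The vascular genes ATHB8, SULTR2;1, SWEET11, APL and ACL5 were listed at 0 in all SPCH cells, and SUC2 was in 6. Of the 10 tested genes of the YODA cascade and brassinosteroid signalling, BZR1, a brassinosteroid-regulated transcription factor, was higher by 2.87 ± 0.55 and by 1.69 ± 0.51 with the term, and its homologue BES1 by 2.62 ± 0.58 as measured only, counts near the 22.0% and 6.31% over all features. Of the commitment genes, 3 of 8 could be tested, and ERL1, given above, and CDKB1;1 (0.96 ± 0.32, not with the term) were higher. Of 6 hormone and peptide genes published as SPCH targets only CLE9 could be tested, and it did not pass (0.41 ± 0.39); ARR16, a type-A response regulator of cytokinin, was too rare to test, in 14 of 55 SPCH cells and 4 of 334 others.

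**Figure D5:**
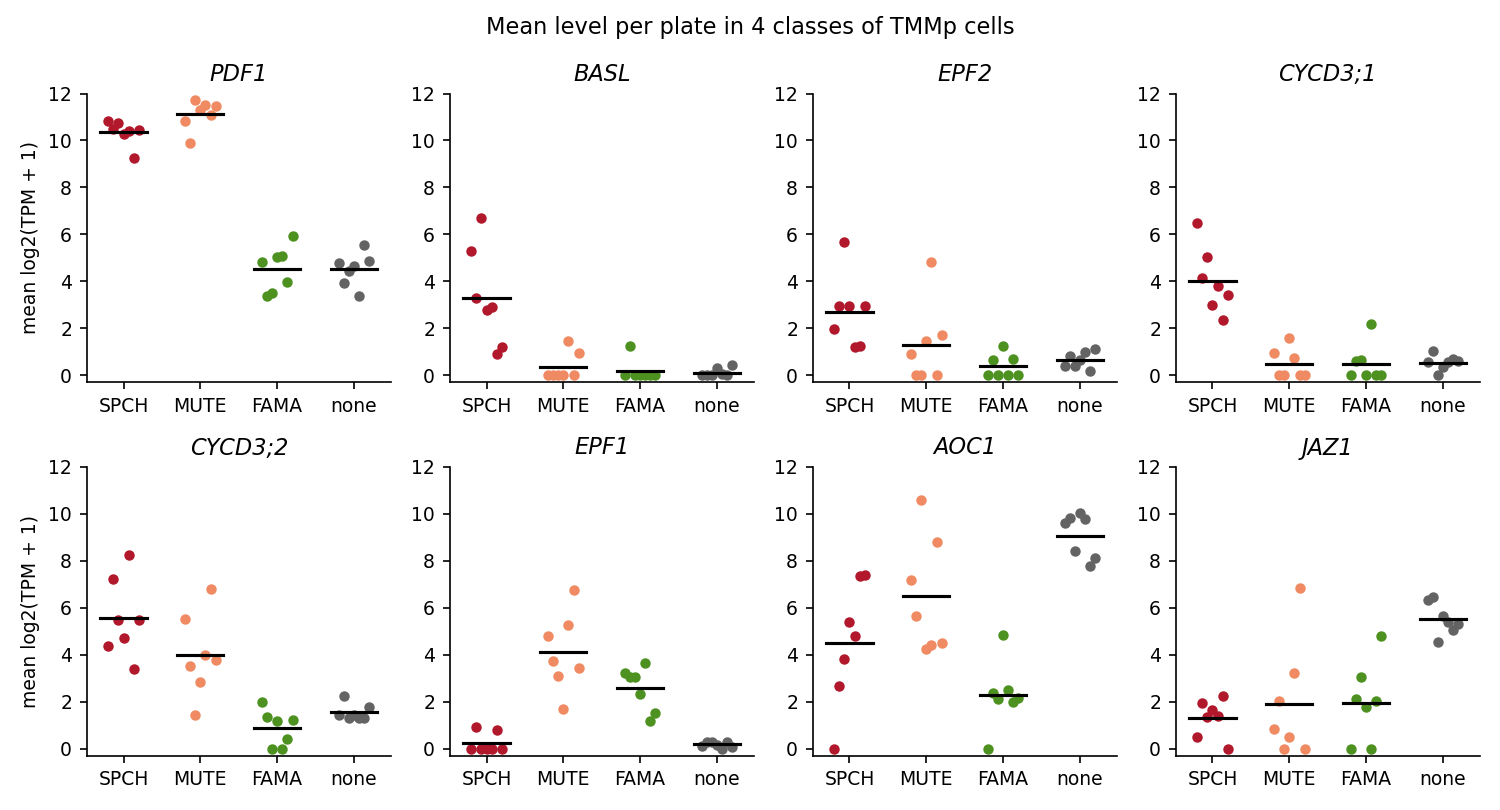
Mean log2(TPM + 1) of 8 genes per plate (points) and its mean over 7 plates (bars) in SPCH, MUTE and FAMA cells and in cells without the 3 regulators (none); TMM6 held 1 MUTE cell. BASL, EPF2 and CYCD3;1 have their highest means over plates in SPCH cells, though EPF2 on TMM5 was at 1.18 in SPCH and 4.80 in MUTE cells. EPF1 is highest in MUTE and FAMA cells, PDF1 in SPCH and MUTE cells, and AOC1 and JAZ1 in cells without the 3 regulators.

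Against FAMA cells, which are later in the lineage, 551 of 14853 features were higher in SPCH cells (3.71%) and 1072 lower (7.22%). The plate medians of genes detected differed by -334 ± 1226 (SD, n = 7; exact two-sided sign-flip test, p = 0.500), SPCH cells minus FAMA cells. With genes detected as a term 501 were higher (3.37%) and 502 lower (3.38%), of which 389 and 493 were shared with the counts as measured. Without TMM2 the counts as measured were 240 higher and 562 lower, without TMM4 324 and 671, without TMM1 647 were lower, and without TMM6 356 were higher.

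The features that stood lowest were UGE3, a UDP-glucose epimerase of cell wall sugars, and DIR1, a lipid transfer protein of systemic resistance. UGE3 was found in 7.27% of SPCH cells and 92.7% of FAMA cells. It had plate means of 0, 0 and 101 TPM in SPCH cells, against 923, 1394 and 2412 TPM in FAMA cells, and differed by -8.97 ± 0.76 (limma adjusted p = 3.01e-14). DIR1, in 3.64% of SPCH cells and 89.1% of FAMA cells, differed by -7.40 ± 0.73. AT2G39690 was listed at 0 in all SPCH cells and found in 80.0% of FAMA cells. DIR1 and AT2G39690 thus passed the filter on detection through the FAMA cells. AT2G04570 (a GDSL lipase), AT3G24670 (a pectin lyase type protein) and AT1G07847 followed at -7.25 ± 0.76, -6.94 ± 0.76 and -7.19 ± 0.62. The last is annotated as antisense to AT1G52910, and without strand their reads cannot be told apart.

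The features that stood highest were AT4G17245, a RING-type protein (6.21 ± 0.76), PDF1 (5.82 ± 0.64), the nucleolar methyltransferase FIB1 (5.29 ± 0.74), AT5G55180, a glycosyl hydrolase (5.02 ± 0.74), the ribosomal protein gene AT2G37600 (4.85 ± 0.68) and CYCD3;2 (4.68 ± 0.73). All 12 kept the threshold with the term. PDF1 was found in 98.2% of SPCH cells and 41.8% of FAMA cells, and CYCD3;2 in 67.3% and 14.5%.

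Of the 22 early stomatal lineage genes tested, 6 were higher in SPCH cells (BASL, EPF2, POLAR, ER, CYCD3;1 and CYCD3;2) and SDD1, a subtilisin-type protease, was lower, and these 7 also passed with the term. Over all features 3.71% were higher and 7.22% lower. BASL and ER, each in 3.64% of FAMA cells, passed the filter on detection through the SPCH cells. Their differences and the count of 6, in part set by that filter, are thus description only. BASL was in 43.6% of SPCH cells and 3.64% of FAMA cells (3.11 ± 0.63), and POLAR was higher by 3.02 ± 0.75. Of the 18 tested S phase genes, 11 were higher and none lower, with a median of 1.14 against -0.14 over all features. Apart from PCNA2 and RNR1, those higher were in under 5% of FAMA cells, so they passed the filter on detection through the SPCH cells. The count and the median thus support nothing by themselves. Without that filter, 5 or more of the 21 S phase genes were found in 36.4% of SPCH cells and 1.82% of FAMA cells. Of the 21 tested mitotic genes CENH3 alone passed (higher, 1.37), and 5 or more of 22 were found in 9 of 55 SPCH cells and 13 of 55 FAMA cells. Of the 16 ribosome and nucleolus genes 12 were higher and none lower, with a median of 2.21. Among those higher, FIB2 was in 0 FAMA cells and passed the filter through the SPCH cells.

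Of the 8 tested guard cell genes, 5 were lower in SPCH cells than in FAMA cells and none was higher. With the term 4 were lower. Over all features 7.22% were lower as measured and 3.38% with the term. MYB60, a guard cell transcription factor, was found in 16.4% of SPCH cells and 69.1% of FAMA cells (-4.82 ± 0.72), and MPK12, a guard cell MAP kinase, in 3.64% and 58.2% (-3.56 ± 0.64). STP1, TGG1 and SLAC1 were the others. MPK12 passed the filter on detection through the FAMA cells. Its difference and the count of 5, in part set by that filter, are thus description only. EPF1, the peptide secreted by later lineage cells, was found in 5.45% of SPCH cells and 38.2% of FAMA cells (-2.32 ± 0.56, limma adjusted p = 0.00313). Of 13 heat response genes 8 were lower and none higher, with a median of -2.15, and with the term 5 were lower, against the same shares over all features. Of 19 tested wounding genes, 7 were higher and JAZ10 lower, against 3.71% higher and 7.22% lower over all features. Among the 7, AOS, LOX4 and CBF1 were in 1.82%, 3.64% and 0% of FAMA cells. They passed the filter on detection through the SPCH cells, so their differences and the count are description only. With the term TCH4 (3.60 ± 0.72 as measured), ZAT10 (3.51 ± 0.67) and AOS, an enzyme of jasmonate synthesis (2.29, and 1.92 with the term, limma adjusted p = 0.0482), were still higher, against 3.37% over all features. LOX4 (2.65 ± 0.56) passed as measured only (1.64 with the term, limma adjusted p = 0.137).

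MUTE cells could be compared with SPCH cells on 6 plates, since TMM6 held 1 MUTE cell and was left out. Differences and plate means are thus over 48 SPCH and 33 MUTE cells, while shares of cells with a gene are over all 55 SPCH and 34 MUTE cells, TMM6 included. Of 14192 features, 10 were higher in SPCH cells (0.0705%) and 55 lower (0.388%), and 1253 had an unadjusted p under 0.05. With genes detected as a term none was higher (0%) and 9 were lower (0.0634%), with 1127 at an unadjusted p under 0.05. Each of 4 plates (TMM1, TMM2, TMM4 and TMM5), when left out, lowered the count of lower features to between 16 and 26, and TMM1, TMM2, TMM3, TMM4 and TMM5 lowered that of higher features to between 0 and 5. A small count does not show that the groups are alike.

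CYCD3;1 and BASL were among the features higher in SPCH cells than in MUTE cells. CYCD3;1 was found in 54.5% of SPCH cells and 8.82% of MUTE cells. Its plate means were 74.5, 157 and 333 TPM in SPCH cells, against 0, 1.05 and 48.7 TPM in MUTE cells over the 6 plates, with no overlap, and it differed by 3.77 ± 0.82 (limma adjusted p = 0.00308). BASL was found in 43.6% of SPCH cells and 5.88% of MUTE cells (3.30 ± 0.78, adjusted p = 0.0110). ATLP-1, a thaumatin-like protein (3.45 ± 0.79), PME5, a pectin methylesterase (3.29 ± 0.76), AT4G29030 (3.06 ± 0.77) and HSF4, a heat shock factor (2.86 ± 0.77), were the other 4 named by the rule. None of the 6 passed with the term, where CYCD3;1 was at 4.03 (limma adjusted p = 0.106) and BASL at 3.07 (adjusted p = 0.505). Without TMM1 or TMM2 none of the 6 passed, with CYCD3;1 at 3.41 (adjusted p = 0.0642) and 3.69 (adjusted p = 0.0703).

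The 6 features lowest in SPCH cells against MUTE cells passed with the term and without each plate in turn, but with the log of mean TPM UGE3 alone passed (limma adjusted p = 0.00185). AT1G07847 was at -7.23 ± 0.76 and the gene it lies antisense to, AT1G52910, at -6.53 ± 0.83, with AT1G52910 found in 43.6% of SPCH cells and 97.1% of MUTE cells. UGE3 was found in 7.27% of SPCH cells and 76.5% of MUTE cells, at -6.67 ± 0.90. AT4G25260, a pectin methylesterase inhibitor type protein (-6.23 ± 0.92), AT4G03585 (-6.01 ± 0.93) and TLP2, a tubby-like protein (-5.55 ± 0.91), completed the 6. AT4G03585 is annotated as antisense to CYP86A2, which was itself at -5.47 ± 0.93, and their reads cannot be told apart. EPF1 was found in 5.45% of SPCH cells and 50.0% of MUTE cells, at -3.52 ± 0.77 (limma adjusted p = 0.00314), but at -2.98 with the term (adjusted p = 0.288). PDF1 differed by -0.58 (limma adjusted p = 0.806). No S phase or ribosomal gene passed, with medians of -0.61 for the 20 tested S phase genes and -0.77 for the 16 ribosome and nucleolus genes against -0.10 over all features.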

How the data were processed

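Single cells were profiled with Smart-seq2, which has no molecular identifiers and marks no strand, and a scaled-down Nextera XT preparation, per the labels' protocols. The authors deposited TPM values, with genes in rows and cells in columns, per the file headers. The authors' sort table held log2 sorter signals, per the file headers. Cell Ranger and TAIR10 are named by the submitters' processing notes; the program behind the TPM is not given in the sources used here. RefSeq TAIR10.1 named 32548 of 32833 genes, and no coordinates are given. The droplet samples were not analysed here.

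All cells were kept. Doublets were not called, as TPM hold no counts, and no cells had identical values. Each plate gave the mean log2(TPM + 1) per class, with 2 cells or more. limma 3.58.1 in R 4.3.3 tested plate means with plate as a block, since both classes came from the same plates, and a trended prior, and was tested on simulated data, where small changes were not recovered. SPCH, MUTE and FAMA were left out of the tests. Python 3.11.15 with scipy 1.17.1 gave exact tests and intervals.

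Genes named are the 15 with the largest difference in each direction (6 against FAMA and MUTE cells), past the threshold with 1 sign on every plate, plus genes of 16 lists. The cells, lists and tests were chosen with earlier results of these data known.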

Additional observations from a re-analysis of the deposited data

Results flagged for a closer look

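In 5 of 82 results over plates, 1 plate stood apart from the others by Dixon's test, which flags about 1 in 20 by chance. The share of SPCH cells was 20.5% on TMM2, against 7.94 to 13.16% on the other plates. Another 4 results were gene differences between SPCH cells and cells without the 3 regulators, on the log2(TPM + 1) scale. PDF1 was at 3.69 on TMM6 and 5.61 to 7.04 elsewhere. AT5G58420, a ribosomal protein gene, was at 0.83 on TMM5 and 3.99 to 6.18 elsewhere. EPF2 was at 5.28 on TMM3 and 0.21 or more on the others. TCX2 was at 6.85 on TMM1 and 0.85 to 3.24 elsewhere.

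The other line, ATML1p::YFP-RCI2A, was in no comparison. Of its 143 cells 2 met the rule. The one with more SPCH, at 174 TPM, had BASL at 251 TPM, while BASL was listed at 0 in all 121 ATML1p cells without the 3 regulators. That cell also had EPF2 at 357 TPM, POLAR at 289.5 TPM and PDF1 at 4780.2 TPM. The other, with SPCH at 14.0 TPM, had all 4 of these at 0.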

How the results depend on the processing

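Counts of features higher and lower in SPCH cells than in cells without the 3 regulators were 2666 and 555. They were 399 and 363 against the matched cells, 765 and 481 with genes detected as a term, 473 and 795 with the log of mean TPM, 1060 and 315 without the filter, 1408 and 400 against all other TMMp cells, 1440 and 1116 after centring, and 1004 and 154 in pool 2 alone. Leaving out 1 plate gave 1604 to 3116 higher and 318 to 629 lower, and with the term 358, 462, 536, 579, 591, 772 or 821 and between 196 and 535, among them 297, 312, 336 and 361. Without the replicate block of plates the counts were 2344 and 541, and the block changed 1 named call, that of TSO1. Against FAMA cells (551 and 1072), 502 were lower with the term and 568 with the log of mean TPM, and leaving out 1 plate gave 240 to 559 higher and 562 to 1288 lower. Without the block the counts were 533 and 1076. Against MUTE cells (10 and 55) they were 0 and 9 with the term, 1 and 3 with the log of mean TPM, 0 to 9 and 16 to 82 without 1 plate, and 10 and 58 without the block.

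Against matched cells the forward scatter differences turned round, to -0.02 for area, -0.02 for height and -0.00179 for width, from values within their spread. Without 1 plate width ranged from -0.00362 to 0.03. BSL1, which passed nowhere, turned to -0.31 against matched cells, to -0.51 with the log of mean TPM, and to between -0.11 and -0.05 with the term and 1 plate left out. The cause of these changes was not tested. The pools did not differ in any feature's SPCH difference by an adjusted p in limma, with 649 at an unadjusted p under 0.05. TPM keep no depth, so low genes near 0 in both groups cannot be read as absent.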
